A study of Mus musculus with 2 samples.

Results

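Gene desert peaks are the ATAC-seq peaks on chromosomes 1 to 19 whose summit lies more than 100 kb from the span of every protein-coding gene of the mouse genome. By this rule 2996 of 63351 autosomal peaks in the treatment library and 4249 of 83295 in the control library were desert peaks, 7245 of the 150383 deposited peaks in all. ATAC-seq marks accessible DNA by the insertion of sequencing adapters with a transposase, and here it profiled CD8+ T cells of the mouse, the cytotoxic arm of the T cells. The cells are written Peml-1 in the series title. There were 2 libraries, 1 titled treatment and 1 titled control, with no replicate of either. A separate treatment field reads "Combined treatment" for the treatment-titled library and "Treatment" for the control-titled one. The labels give no agent, dose, time, strain or age for the mice, their genotype field states no allele, and the title's Peml-1 covers both libraries. Treatment and control below mean the libraries with these titles, so every difference is one between 2 libraries and was not set against any spread between replicates. A change in the make-up of the cells and a change in accessibility per cell cannot be told apart.

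Gene deserts are long stretches of a chromosome without protein-coding genes. Some hold distal enhancers, which are short accessible elements bound by transcription factors that act on a promoter far along the chromosome, often through looping of the DNA between them. In T cells the stretches around Myc, Id2, Bcl11b, Gata3 and Satb1 are known for such elements, and many deserts also carry genes of long non-coding RNAs. The V segments of antigen receptors form another kind of stretch without annotated protein-coding genes, because each segment is a separate piece of a gene that is joined in the lymphocyte.

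No mm10 genome was at hand, so the sequences of the peaks themselves were not analysed here. The sequences shown are RefSeq promoter windows of non-coding genes that start inside a desert, each 250 bases before to 50 bases after the start, in build GRCm38.p6, which is the assembly of mm10. They were picked, after their values were seen, to show the kinds of desert promoter found: open in both libraries, open in treatment only and open in control only. Capitals mark a motif of the search described below, and the sequences run 5′ to 3′ on the strand of the gene. Morrbid, a long non-coding RNA known to act on its neighbour Bcl2l11, has the window chr2:128429302-128429601 on the minus strand. Ifngas1, a long non-coding RNA near Ifng known to affect its expression, has chr10:118556476-118556775 on the minus strand. Gm19585, in the desert beside Satb1, has chr17:52149039-52149338 on the plus strand. C330011F03Rik, in the desert on the other side of Satb1, has chr17:51448220-51448519 on the minus strand. Gm33041, in the desert beside Gadd45g, has chr13:52222618-52222917 on the plus strand.
Morrbid: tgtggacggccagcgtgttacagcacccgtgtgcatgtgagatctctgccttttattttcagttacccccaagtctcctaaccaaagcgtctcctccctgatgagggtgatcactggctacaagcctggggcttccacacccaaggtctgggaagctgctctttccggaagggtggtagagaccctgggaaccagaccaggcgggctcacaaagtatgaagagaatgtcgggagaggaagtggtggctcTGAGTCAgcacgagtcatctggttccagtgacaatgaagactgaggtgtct
Ifngas1: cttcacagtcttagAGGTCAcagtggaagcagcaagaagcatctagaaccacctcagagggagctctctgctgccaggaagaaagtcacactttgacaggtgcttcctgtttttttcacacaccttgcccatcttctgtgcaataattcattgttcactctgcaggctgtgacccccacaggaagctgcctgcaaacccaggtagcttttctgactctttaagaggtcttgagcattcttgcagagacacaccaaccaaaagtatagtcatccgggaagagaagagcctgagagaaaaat
Gm19585: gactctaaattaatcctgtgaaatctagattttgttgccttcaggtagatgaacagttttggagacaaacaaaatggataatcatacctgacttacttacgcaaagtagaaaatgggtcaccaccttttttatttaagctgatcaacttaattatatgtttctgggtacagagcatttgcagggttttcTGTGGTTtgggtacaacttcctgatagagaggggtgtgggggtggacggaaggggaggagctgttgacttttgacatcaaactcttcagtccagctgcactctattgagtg
C330011F03Rik: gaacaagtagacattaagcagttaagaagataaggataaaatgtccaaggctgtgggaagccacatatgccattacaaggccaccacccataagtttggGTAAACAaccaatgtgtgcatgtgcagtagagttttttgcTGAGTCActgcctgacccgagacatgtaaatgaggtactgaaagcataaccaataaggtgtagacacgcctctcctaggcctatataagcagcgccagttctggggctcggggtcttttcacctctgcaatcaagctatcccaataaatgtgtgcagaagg
Gm33041: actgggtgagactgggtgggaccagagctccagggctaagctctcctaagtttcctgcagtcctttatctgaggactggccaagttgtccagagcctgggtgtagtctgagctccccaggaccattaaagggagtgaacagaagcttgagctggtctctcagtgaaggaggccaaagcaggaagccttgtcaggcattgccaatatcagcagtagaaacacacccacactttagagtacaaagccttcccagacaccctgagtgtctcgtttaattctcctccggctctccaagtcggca

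The windows of Morrbid, Ifngas1 and Gm19585 overlapped a peak in both libraries. At Morrbid the overlapping peak had 237 reads over its summit in treatment and 513 in control, and was 2237 bp wide in treatment and 1936 bp in control. At Ifngas1 the summit reads were 380 in treatment and 512 in control, and at Gm19585 they were 391 in treatment and 515 in control. All 3 promoters thus had fewer reads in treatment. The C330011F03Rik window overlapped a peak in treatment only, with 42 reads, and the Gm33041 window one in control only, with 49 reads. Both of these single-library peaks were weak, with a fold enrichment of 2.68 at C330011F03Rik and 3.11 at Gm33041. The promoters of Lncpint, an RNA known as a target of p53, and of Dubr were open in both libraries at higher levels. Lncpint had 879 reads in treatment and 718 in control, and Dubr had 1483 in treatment and 1500 in control. Of 1701 genes with a RefSeq promoter window in a desert, 69 had a peak over a window in both libraries, 2 in treatment only, 26 in control only and 1604 in neither. Over all 25748 autosomal genes with such a window the numbers were 11663, 52, 919 and 13114 in the same order. Among genes with a peak over a window, the treatment-only share was thus 2.06% in deserts beside 0.412% of all 12634, and the control-only share 26.8% beside 7.27%. Of the 26 control-only desert genes, 8 had a control peak that overlapped a treatment peak outside the window. The other gene of the treatment-only pair, 8430430B14Rik, lies in the desert between Haao and Zfp36l2. Its 178-read peak overlapped a control peak outside the window.

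The motifs searched, on both strands, were TGTGGTT for RUNX factors, ACAGGAAGT for ETS factors, TGANTCA for AP-1, CTTTGAA for TCF factors, the CTCF motif, of 12 letters, AGGTCA for nuclear receptors and TGTTTAC for FOX factors. Each motif was counted on its own, also where it overlapped another. The RUNX motif was in 13.8% of the 116 desert windows with a peak in either library, 5.90% of the 1898 desert windows without one, 3.95% of the 14793 autosomal windows with a peak and 5.32% of all 31396 autosomal windows. The AP-1 motif was in 14.7%, 10.1%, 4.91% and 7.84% of these 4 sets in the same order, and the TCF motif in 14.7%, 7.48%, 3.47% and 5.09%. The ETS motif was in 2.59%, 1.21%, 1.26% and 1.03%, which in desert windows with a peak were 3 windows. The nuclear receptor motif was in 20.7%, 19.5%, 11.6% and 16.3%, and the FOX motif in 6.03%, 4.69%, 2.43% and 3.71%. The CTCF motif was in 4.31%, 3.27%, 13.4% and 8.73%, the one motif less frequent in desert windows with a peak than in all windows with a peak. These shares are descriptions of letters in a window, and windows of 1 gene can overlap. In the printed windows, counting from 1 at the 5′ end, AP-1 letters stand at position 250 of Morrbid and 140 of C330011F03Rik, RUNX letters at 190 of Gm19585, nuclear receptor letters at 15 of Ifngas1 and FOX letters, on the opposite strand, at 100 of C330011F03Rik.

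Desert peaks were fewer in treatment than in control, and by somewhat more than other autosomal peaks. They made up 4.73% of the treatment list (95% Wilson interval 4.57 to 4.90%) and 5.10% of the control list (4.95 to 5.25%). The number of treatment desert peaks was 0.705 times that of control, against 0.764 for the peaks within 100 kb of a gene. Desert peaks covered 1.57 Mb in treatment and 2.204 Mb in control. The desert ratio was below 1 on each of the 19 chromosomes, and so was the ratio of all peaks, which lay between 0.724 and 0.787. On chromosomes 9, 14, 16 and 17 the desert ratio was above that of all peaks, and on the others below it. The desert ratio was lowest on chromosome 11, with 62 desert peaks in treatment and 115 in control. It was highest on chromosome 17, with 100 in treatment and 119 in control. Chromosome 12, which carries the Igh V segments and Id2, had the highest share of its peaks in deserts, 12.5% in treatment and 13.3% in control. With the control list shortened to as many autosomal peaks as the treatment list, the ratio for desert peaks was 0.969.

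Most treatment desert peaks had a counterpart in control, while many control desert peaks had none in treatment. Of the treatment desert peaks, 2663 or 88.9% (87.71 to 89.96%) overlapped a control peak by at least 1 bp. Of the control desert peaks, 2663 or 62.7% (61.2 to 64.1%) overlapped a treatment peak. This left 333 desert peaks, 11.1%, in treatment only, beside 6.73% of all autosomal treatment peaks. It left 1586, 37.3%, in control only, beside 29.3% of all autosomal control peaks. Sharing was therefore lower among desert peaks than among other peaks in both lists, where it was 93.5% in treatment and 71.1% in control.

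Shared desert peaks were the stronger ones of each list. The fold enrichment, which is the authors' own value for each peak over its local background, had a median of 7.65 for shared and 2.87 for treatment-only desert peaks. In control the medians were 11.4 for shared and 5.08 for control-only desert peaks. When peaks were placed in quartiles of fold enrichment of their own list, desert peaks in the lowest quartile were shared in 67.1% in treatment and 32.7% in control. Other peaks of that quartile were shared in 78.2% in treatment and 38.3% in control. In the second quartile, 92.7% of treatment and 47.2% of control desert peaks were shared, against 96.4% and 61.9% of other peaks. In the third quartile, 99.5% of treatment and 76.1% of control desert peaks were shared, against 99.3% and 86.7%. In the highest quartile, 100% of the 652 treatment desert peaks and 93.9% of the control ones were shared, against 99.9% and 97.6%. Desert peaks were thus shared less than other peaks of like fold in all 4 quartiles of the control list and in the lower pair of quartiles of the treatment list.

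**Figure D1:**
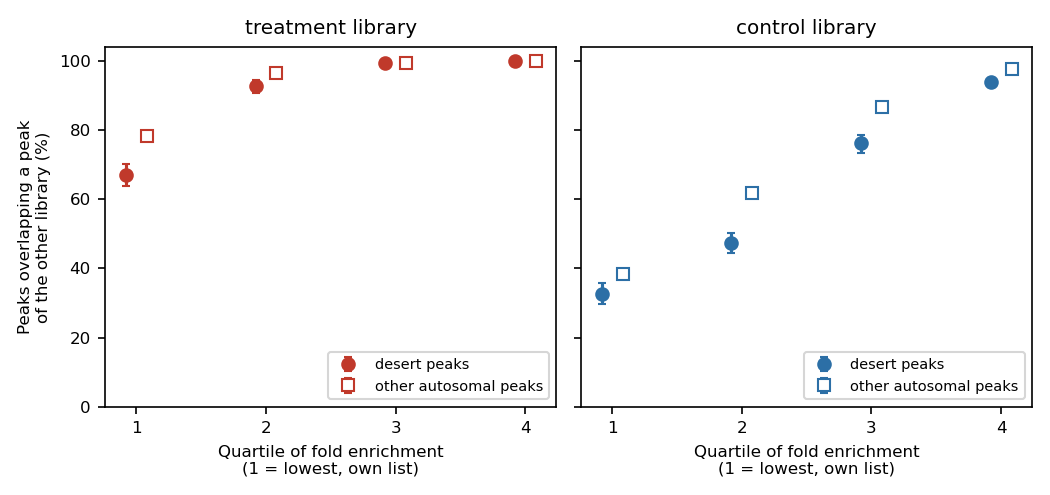
Percent of peaks that overlap a peak of the other library (y axis) by quartile of fold enrichment within the library's own autosomal list (x axis), for treatment (left) and control (right). Filled circles are desert peaks, open squares other autosomal peaks, and bars are 95% Wilson intervals, which cover counting error only. In control the desert peaks lie below the others in each quartile, from 32.7% in the lowest to 93.9% in the highest.

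Desert peaks were narrower than other peaks in both libraries, and alike in width between the libraries. Their median width was 452 bp (order-statistic interval 439 to 463 bp) in treatment and 446 bp (433 to 458 bp) in control, against 537 and 525 bp for other peaks of treatment and control. Widths ran between 186 and 3680 bp in treatment and between 176 and 4066 bp in control. Peaks of 1 kb or more made up 6.48% of desert peaks in treatment and 6.75% in control, against 15.7% and 16.4% of other peaks, and 7 desert peaks in each library reached 2 kb. The near-equal medians held peaks of unlike kinds. Shared desert peaks had a median width of 480 bp in treatment and 581 bp in control, and single-library ones 276 bp in treatment and 281 bp in control, so control mixed wider shared peaks with more narrow unshared ones. With lists of equal length, the control median was 541 bp.

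The ratio of peak numbers lay between 0.667 and 0.747 in 4 bins of distance from genes, and sharing between 88.2 and 96.3% in treatment and between 62.1 and 67.1% in control. Between 100 and 200 kb from the nearest protein-coding span there were 1638 desert peaks in treatment and 2343 in control. Between 200 and 500 kb there were 1038 and 1469, between 500 and 1000 kb 266 and 356, and beyond 1000 kb 54 and 81, each time in treatment and then control. The ratios in these 4 bins were 0.699, 0.707, 0.747 and 0.667. The share of treatment desert peaks with a control counterpart was 88.6%, 88.2%, 91.4% and 96.3%, the last over 54 peaks with an interval of 87.5 to 99.0%. The share of control desert peaks with a treatment counterpart was 62.1%, 62.4%, 67.1% and 64.2% in the same bins. The most remote peak lay 1765872 bp from a gene in treatment and 2137677 bp in control. At the edge of the rule, the 273 treatment and 382 control peaks at 100 to 110 kb were shared in 89.4% and 64.1%, and the 318 treatment and 460 control peaks just outside, at 90 to 100 kb, in 93.7% and 65.4%.

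In treatment 56.5%, and in control 62.5%, of the desert peaks had another desert peak of the same library within 10 kb. The control list of desert peaks is also longer, with 4249 against 2996 in treatment. Neither these shares nor the long non-coding RNA shares below were computed for other autosomal peaks, so they cannot be called particular to deserts. Of the desert summits, 24.2% in treatment and 23.5% in control lay inside an annotated long non-coding RNA gene, and 229 in treatment and 330 in control had no gene entry of any kind within 100 kb.

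Reads over the summit could be read back from the deposited fold and p-value, which allowed a comparison of peaks found in both lists. Of the 2606 desert peaks that paired one to one, 2594 had a read number in both libraries. The median pair had 0.665 times as many reads in treatment as in control, a log2 ratio of -0.59 with quartiles at -1.08 and -0.19. The median log2 ratio for pairs outside deserts was -0.51. Treatment had more reads in 466 desert pairs, 18.0%, beside 14.7% of all autosomal pairs. At 739 pairs, 28.5%, the log2 ratio was -1 or lower, against 21.3% of pairs outside deserts, and at 31 pairs it was 1 or higher. Paired desert peaks were narrower in treatment in 74.8% of cases, with a median of 477 bp in treatment and 580.5 bp in control. Pairs outside deserts were narrower in treatment in 78.7%, with medians of 563 and 654 bp, so the narrowing was not particular to deserts. The summits of desert pairs lay a median of 5 bp apart, as did those of other pairs.

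These reads rest on both libraries being of like depth. The lowest local background, taken from the same values, was 15.05 in treatment and 14.15 in control on the scale of the summit reads. Divided by the width of the narrowest peak, 186 bp in treatment and 176 bp in control, it was 1.006 times as high in treatment. The summit reads were not divided by these widths, and depth could be judged from nothing else. Whole-number reads were found for 99.96% of treatment and 99.99% of control peaks of the whole series, within 0.001 in −log10 p. The labelled cell type was checked on peaks in or within 1 kb of marker genes. There were 3 treatment and 4 control peaks at Cd8a, 6 and 4 at Cd8b1, and 52 and 58 over all 6 CD8 T cell markers. The NK markers Klrb1c and Ncr1 had none in either. The B cell markers Pax5, Ebf1 and Cd79a held 20 treatment and 25 control peaks, with Pax5 at 9 and 10, Ebf1 at 9 and 13 and Cd79a at 2 and 2. The 3 myeloid markers had 6 in treatment and 10 in control, with Lyz2 at 0 and 1, and at Cd4 and Zbtb7b, of CD4 T cells, treatment had 7 peaks and control 6.

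A desert, in what follows, is a maximal stretch more than 100 kb from every protein-coding span, named by the protein-coding genes that flank it. There were 1414 deserts, of which 706 held a peak. Treatment had fewer peaks than control in 435 of these (61.6%), more in 77 and an equal number in 194. The treatment library had no peak in 117 and the control library none in 41 of them. Among the 189 deserts with 10 or more peaks summed over both libraries, treatment had fewer in 156, more in 10 and an equal number in 23. The 15 deserts with most peaks held 711 treatment and 951 control peaks, 23.7% and 22.4% of all desert peaks. Treatment had fewer peaks in 14 of the 15, and the other had equal counts.

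**Figure D2:**
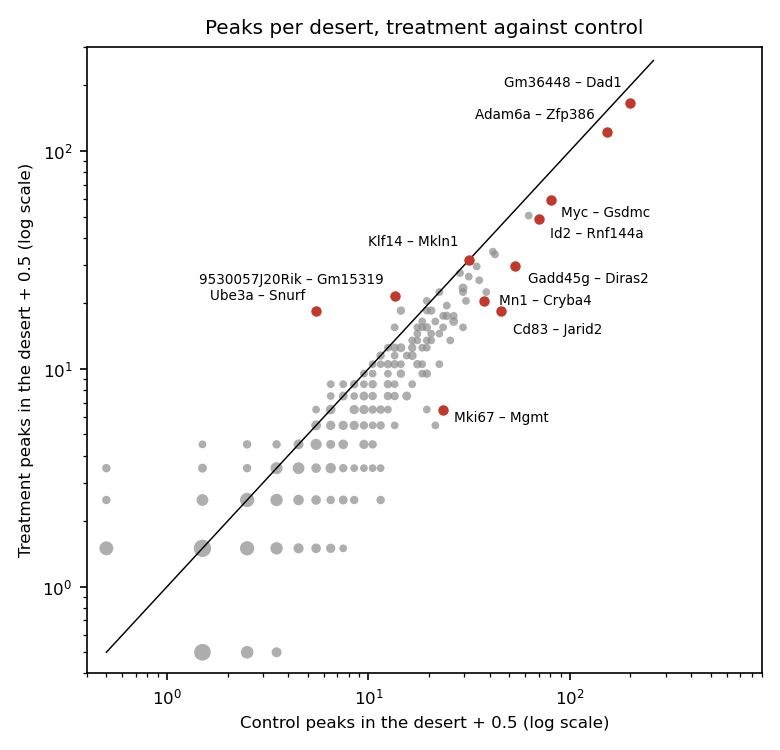
Peaks per desert in treatment (y axis) against control (x axis), both with 0.5 added and on log scales; each grey circle is a pair of counts, larger where more deserts share it, red circles are named deserts, and the line marks equal counts. Of the deserts holding a peak, 435 lie below the line and 77 above it, with Ube3a – Snurf at 18 treatment and 5 control peaks and Cd83 – Jarid2 at 18 and 45.

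The deserts with most peaks were stretches of antigen receptor segments. The desert between Gm36448 and Dad1, a subunit of the oligosaccharyltransferase, at chr14:52641357-54135484, holds 132 annotated segments of the T cell receptor alpha and delta locus. It had 165 peaks in treatment and 199 in control, of which 5 were in treatment only and 38 in control only. Its peaks had a median of 223 summit reads in treatment and 253 in control, and the median log2 ratio over 153 pairs was -0.41. The desert between Adam6a and Zfp386, at chr12:113646415-115947713, holds 168 annotated segments of the immunoglobulin heavy chain, which B cells rearrange. It held 122 treatment and 153 control peaks, of which 3 and 35 were in a single library. Summit reads there had a median of 203.5 in treatment and 298 in control, with a median log2 ratio of -0.72 over 117 pairs. B cell marker peaks were also fewer in treatment, as given above, and their part in this difference was not tested. The short stretch between 2210010C04Rik and Try4, at chr6:41135510-41202271, with 7 segments of the T cell receptor beta locus, had 12 peaks in each library, all shared, and the most desert peaks per Mb of any desert with 10 or more peaks. All deserts with receptor segments together held 308 peaks in treatment and 375 in control, a ratio of 0.821. Without them, desert peaks numbered 2688 in treatment and 3874 in control, a ratio of 0.694.

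Both sides of Myc, the growth factor-induced transcription factor that drives T cell expansion, were deserts rich in peaks. On the side of Gsdmc, a gasdermin, chr15:62090362-63675970 held 59 treatment and 80 control peaks, with 1 in treatment only and 22 in control only. On the side of A1bg, chr15:61021271-61885340 held 33 treatment and 42 control peaks, with 3 and 12 in a single library. Peaks on the Gsdmc side were densest near Myc, with 29 treatment and 35 control peaks in the part of the gap next to the gene, when the gap is cut in 4 equal parts. The strongest pair of a desert is the one with the highest geometric mean of treatment and control summit reads. On the Gsdmc side it lay at chr15:62169239-62170354 in treatment, about 179 kb from Myc, and had 1470 reads in treatment and 1526 in control. At the far end of the desert another pair, at chr15:63661687-63662040 in treatment, had 140 reads in treatment and 866 in control. The median log2 ratio was -0.84 over 58 pairs on the Gsdmc side and -0.51 over 30 pairs on the A1bg side. With lists of equal length the counts turned round on both sides, to 59 in treatment and 55 in control beside Gsdmc and to 33 and 32 beside A1bg.

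Id2, the inhibitor of E proteins that is expressed in effector CD8+ T cells, had the fourth richest desert. Between Id2 and Rnf144a, a ubiquitin ligase, chr12:25196093-26206793 held 48 peaks in treatment, none of them in treatment only, and 70 in control, 23 of them in control only. Of the 46 pairs with reads, 3 had more in treatment, and the median log2 ratio was -1.07. The strongest pair, at chr12:26068090-26069136 in treatment, had 973 reads in treatment and 1407 in control. The pair furthest apart, at chr12:25246978-25247259 in treatment, had 71 reads in treatment and 501 in control.

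In a further group of deserts the treatment library lacked 4 in 10 or more of the control peaks, beside 37.3% over all control desert peaks. Cd83 encodes a surface protein of activated lymphocytes and dendritic cells, and Jarid2 a cofactor of the Polycomb repressive complex. The desert between them, chr13:43903134-44630773, had 18 peaks in treatment, all shared, and 45 in control, of which 27 were in control only, a share with a Wilson interval of 45.5 to 73.0%. Each of its 15 pairs had fewer reads in treatment, with a median log2 ratio of -1.47. Its strongest pair, at chr13:44065595-44066432 in treatment, had 544 reads in treatment and 1355 in control. Between Mn1 and the crystallin gene Cryba4, at chr5:111557031-112146491, there were 20 peaks in treatment and 37 in control, with 3 in treatment only and 21 in control only, and all 15 pairs had fewer reads in treatment. Between Gadd45g, a stress-induced regulator of growth arrest, and the small GTPase gene Diras2, at chr13:51948476-52404374, there were 29 peaks in treatment and 53 in control, with none in treatment only and 25 in control only. Its strongest pair had 304 reads in treatment and 1511 in control, and none of the 27 pairs had more reads in treatment. The Wilson interval of the control-only share was 40.9 to 71.3% between Mn1 and Cryba4. Between Gadd45g and Diras2 it was 34.4 to 60.3%, which includes the share over all control desert peaks. A desert outside the naming rule, picked after its values were seen, lies between Mki67 and Mgmt, with 6 peaks in treatment and 23 in control, 17 of them in control only.

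**Figure D3:**
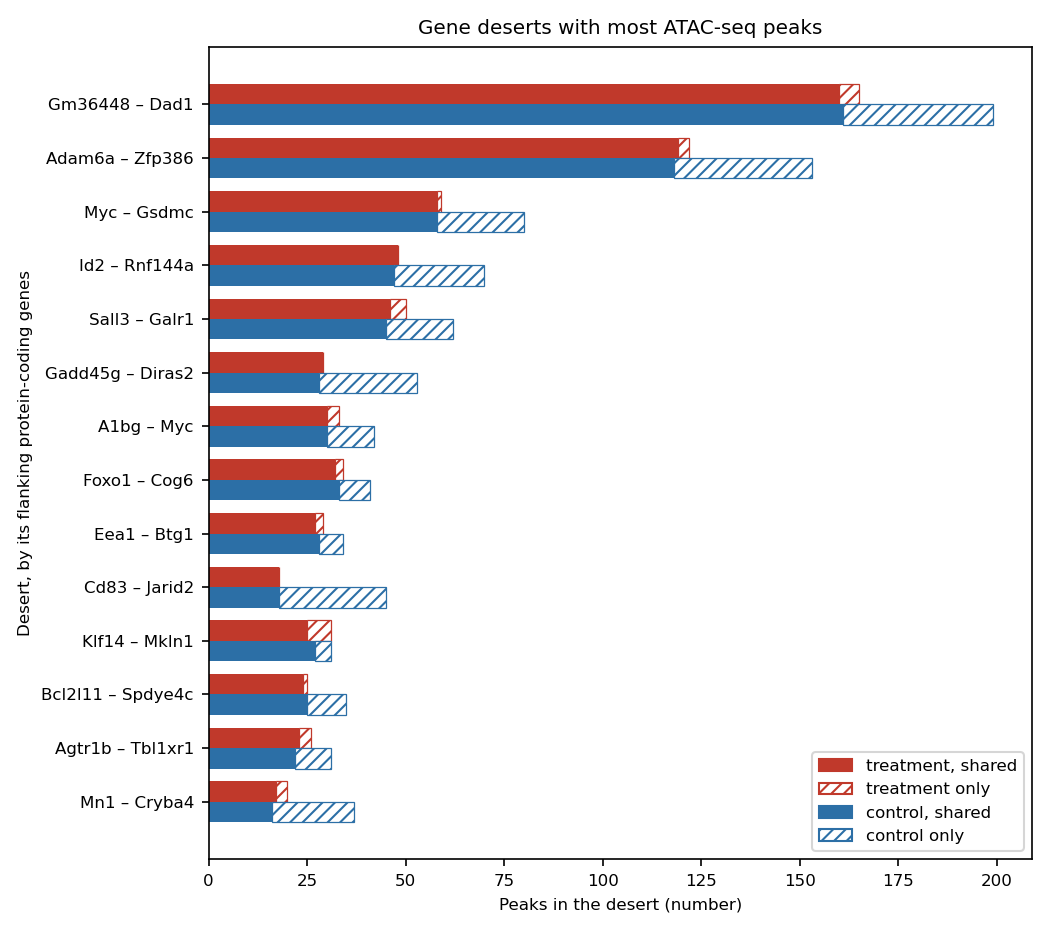
Number of peaks (x axis) in 14 of the 15 deserts with most peaks (y axis, named by flanking genes), treatment in red above control in blue. Filled bars are peaks that overlap one of the other library and hatched bars peaks in a single library. The hatched part is smaller in treatment in every desert drawn except Klf14 – Mkln1, where it is 6 in treatment and 4 in control.

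In other rich deserts the counts of the libraries lay closer together. Foxo1 is a transcription factor of naive and memory T cells, and the desert between it and Cog6, a Golgi protein gene, at chr3:52450110-52882122, had 34 peaks in treatment and 41 in control. Their median summit reads were 267.5 in treatment and 253 in control, and 10 of 31 pairs had more reads in treatment. The desert peak nearest to Foxo1, 109 kb from the gene, was the strongest there, with 1384 reads in treatment and 1737 in control. The rule admits no peak within 100 kb of the gene. Between Eea1, an early endosome protein gene, and Btg1, an antiproliferative gene of resting lymphocytes, at chr10:96145519-96517000, there were 29 peaks in treatment and 34 in control. Its strongest pair had 1958 reads in treatment and 1802 in control. Between Sall3 and the galanin receptor gene Galr1, at chr18:81087022-82292495, there were 50 peaks in treatment and 62 in control, and the strongest pair had 1649 and 1669 reads. With lists of equal length treatment had more peaks at both of these, by 2 between Eea1 and Btg1 and by 8 between Sall3 and Galr1, and with non-coding genes also bounding the deserts it had 1 more of those left between Sall3 and Galr1. Between Agtr1b and Tbl1xr1, a corepressor subunit gene, at chr3:20467178-21976252, there were 26 peaks in treatment and 31 in control, with 20 and 21 of them in the last of 4 equal parts of the gap, next to Tbl1xr1.

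Bcl2l11 encodes Bim, the pro-apoptotic protein that ends T cell responses. The desert between it and Spdye4c, at chr2:128262548-128491200, had 25 peaks in treatment and 35 in control, 10 of these in control only, and includes Morrbid. It was also among the deserts with most peaks per Mb, with 109 in treatment and 153 in control. Its strongest pair had 1388 reads in treatment and 1799 in control. The stretch between Max, the partner of Myc, and Fut8, a fucosyltransferase gene, at chr12:77062324-77137429, held 12 treatment and 13 control peaks, and none of its 12 pairs had more reads in treatment. Between Haao and Zfp36l2, an mRNA decay factor that limits lymphocyte proliferation, chr17:83948982-84083923 held 18 treatment and 20 control peaks, and with lists of equal length 18 treatment and 15 control peaks. Between Ptprn2 and Rapgef5, chr12:117378168-117416525 had 5 peaks in treatment and 7 in control.

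Between Klf14 and Mkln1, at chr6:31058991-31298827, both libraries had 31 peaks, with 6 in treatment only and 4 in control only. Reads were still lower in treatment at most pairs, with a median log2 ratio of -0.59 and 6 of 23 pairs higher in treatment. The desert holds Lncpint and the hairpins of Mir29a and Mir29b-1, microRNAs known in T cells for restraining Ifng and other effector genes. Each hairpin had 4 peaks within 10 kb in both libraries. The nearest in treatment to Mir29b-1 had 39 reads and lay 3494 bp away, and the nearest in control lay 3834 bp away with 111 reads, and neither was shared. The mature sequences are shown because both share 1 seed, bases 2 to 8, in capitals.
mmu-miR-29a-3p: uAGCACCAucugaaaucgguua
mmu-miR-29b-3p: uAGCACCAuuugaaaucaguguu
Of 100 microRNA hairpins of the RefSeq table in deserts, 12 had a peak within 10 kb in treatment and 20 in control, the 12 being among the 20. Over all 919 autosomal hairpins of the table, 65.0% had a treatment peak and 72.6% a control peak that near. The 8 hairpins near a control peak alone rest on 2 peaks, 7 of them on 1 peak in the cluster between Rtl1 and Dio3.

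Few deserts had more peaks in treatment. The largest excess lay between Ube3a, a ubiquitin ligase gene imprinted in neurons, and Snurf, at chr7:59410838-59882494, which holds 168 annotated snoRNAs of the imprinted Snord arrays and 2 long non-coding RNA genes. There were 18 peaks in treatment, 13 of them in treatment only, and 5 in control, all shared, and at −log10 q-values from 10 up there were 8 in treatment and 2 in control. The peaks were weak in both, with a median fold enrichment of 2.84 in treatment and 3.10 in control and summit reads of 34 to 113 in treatment and 40 to 55 in control. All 5 pairs had more reads in treatment, with a median log2 ratio of 1.05. The peaks lay between 423 and 570 kb from Ube3a in treatment and between 457 and 552 kb in control, where the rule admits none within 100 kb of either gene. Between 9530057J20Rik and Gm15319, at chr8:20035331-20237663, there were 21 peaks in treatment, 11 of them in treatment only, and 13 in control, 1 of them in control only. The median summit reads there were 72 in treatment and 51 in control, beside 1 pair with 2543 and 2788 reads. Between Lrrc3b and Oxsm, at chr14:15538988-16138651, there were 18 peaks in treatment, 6 of them in treatment only, and 14 in control, 2 of them in control only, and 8 of 12 pairs had more reads in treatment.

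Pairs were compared within the 91 deserts that held at least 8. The median log2 ratio was below 0 in 86 and above 0 in 5, and below -1 in 16. The deserts named here by that ratio were picked after their values were seen. The lowest median, -1.58, was between Sdk2 and Rpl38, where treatment had 9 peaks and control 19. The highest, 0.77, was at the start of chromosome 9 up to Alkbh8, where all 22 peaks of each library were shared and all 12 pairs had more reads in treatment. The least and most raised of these pairs, at chr9:3009316-3010086 and chr9:3017047-3017501 in treatment, lie next to the first 3 Mb, which have no sequence. How reads map there was not tested. Beside Tnfaip3, the inhibitor of NF-kB signalling also called A20, chr10:19115411-19256538 had 15 peaks in treatment, all shared, and 19 in control. There 11 of 15 pairs had more reads in treatment, with a median log2 ratio of 0.21. The pair most raised in treatment there, at chr10:19116874-19117463 in treatment, had 322 reads in treatment and 87 in control, while the pair at chr10:19214969-19215400 had 287 in treatment and 697 in control. The desert between 4933412E24Rik and Lratd2 held 18 treatment and 14 control peaks, and 11 of its 14 pairs had more reads in treatment.

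**Figure D4:**
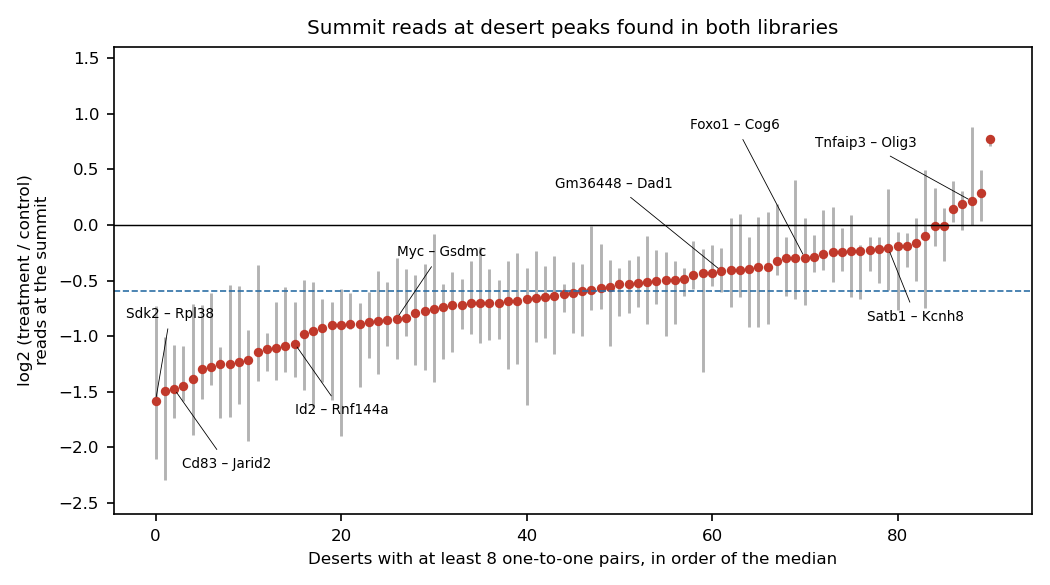
Median log2 ratio of treatment to control summit reads (y axis) in each of the 91 deserts with at least 8 one-to-one pairs, ordered by that median (x axis). Points are medians, grey bars the quartiles of the pairs, the solid line marks equal reads and the dashed line the median of all desert pairs, -0.59. Of the points, 86 lie below 0 and 5 above.

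**Figure D5:**
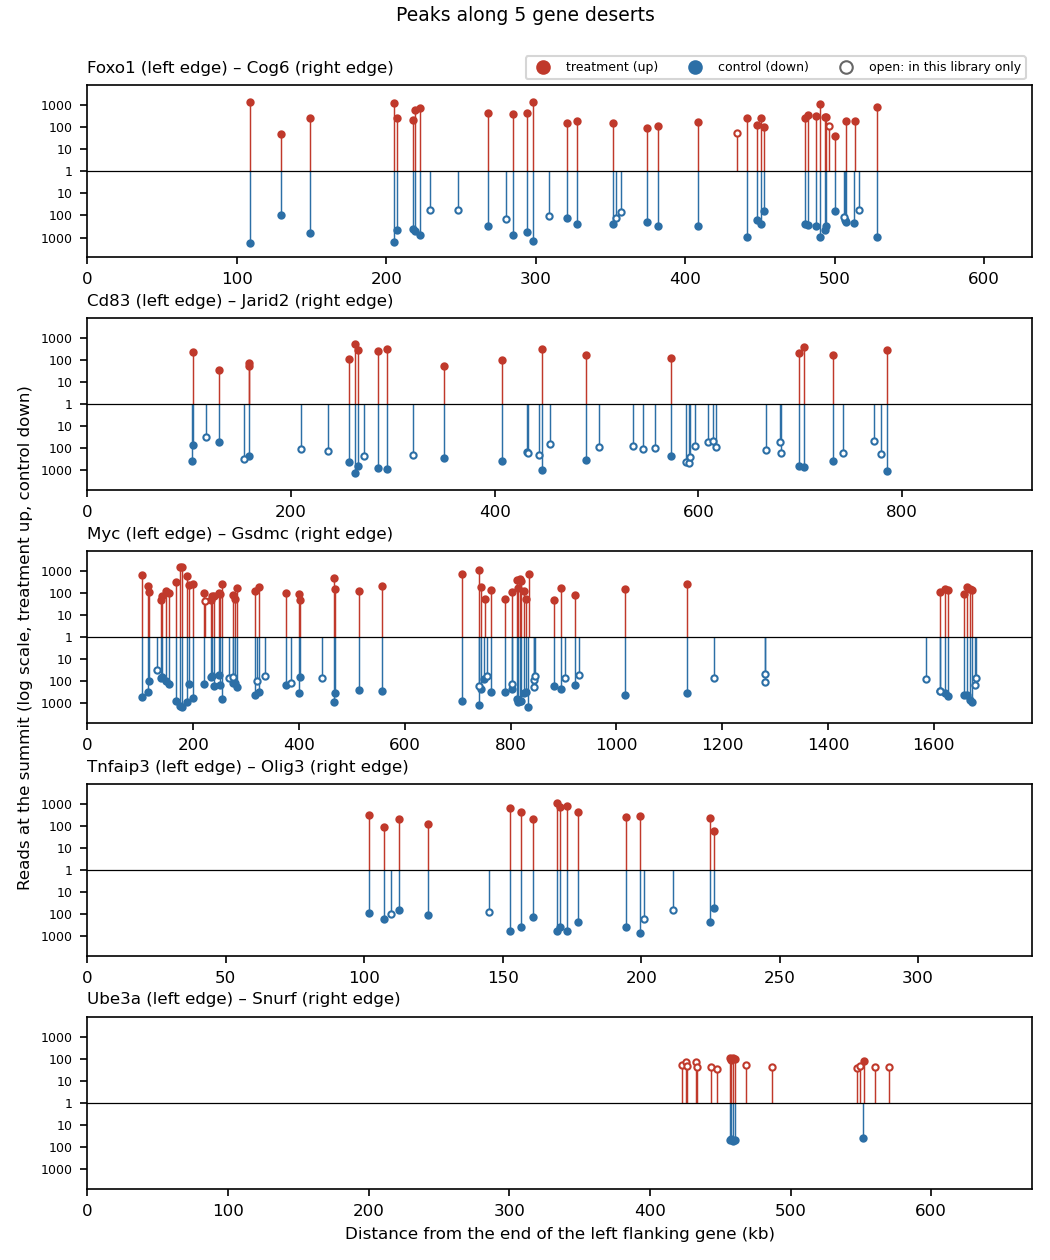
Summits along 5 deserts, by distance from the left flanking gene (x axis, kb), with reads at the summit on a log scale (y axis), treatment upward in red and control downward in blue; filled points are shared and open points in a single library. At Cd83 – Jarid2 the 27 open control points have no treatment partner, and at Ube3a – Snurf the 13 open treatment points lie close together.

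Deserts beside the listed genes of T cell regulation held more peaks per Mb than deserts at large in both libraries. The gene lists were chosen with earlier results of these data known, so the densities are descriptions and no independent support. Of a list of 46 T cell regulators, 28 flank a desert and 27 of these a desert with a peak. Their 36 deserts held 428 peaks in treatment and 577 in control, which is 19.4 per Mb in treatment and 26.2 in control. Over all deserts with a gene on both sides the density was 4.47 per Mb in treatment and 6.39 in control. Of 52 surface, cytokine and survival genes of T cells, 16 flank a desert, and their 16 deserts held 20.3 peaks per Mb in treatment and 29.4 in control. Of 80 neural adhesion, guidance and channel genes, 71 flank a desert, and their 103 deserts held 72 peaks in treatment and 97 in control, 0.543 and 0.732 per Mb. Treatment had fewer peaks in 27 and more in 0 of the 32 regulator deserts with a peak, fewer in all 12 surface gene deserts with a peak, and fewer in 23 and more in 7 of the 44 neural ones. Over all 706 deserts with a peak treatment had fewer in 435 and more in 77, and among those with 10 or more peaks fewer in 156 and more in 10 of 189. With lists of equal length the counts drew together, with fewer in 14 and more in 9 of the regulator deserts, fewer in 5 and more in 3 of the surface gene deserts, fewer in 11 and more in 14 of the neural ones, and fewer in 227 and more in 196 of all. The median log2 ratio of reads was -0.67 over 388 pairs beside regulators, -0.51 over 114 pairs beside surface genes and -0.31 over 58 pairs beside neural genes, against -0.59 over all desert pairs.

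Among the regulators, the chromatin organiser Satb1 had the most even counts of those with over 40 desert peaks summed over both libraries. Its 2 deserts held 36 peaks in treatment and 37 in control, with 6 in treatment only and 7 in control only. The strongest pair on each side had more reads in treatment, 1560 in treatment and 1273 in control at chr17:52468181-52469023 towards Kcnh8, and 1160 and 742 at chr17:51408241-51409096 towards Tbc1d5. Over all 30 pairs the median log2 ratio was -0.24. Klf6, a zinc finger factor, had 18 desert peaks in treatment and 37 in control, 21 of them in control only. The strongest pair towards Akr1e1 had 598 reads in treatment and 861 in control, and the strongest towards Pitrm1, at chr13:6252149-6252383 in treatment, had 64 reads in treatment and 344 in control. Bcl11b and Gata3, both needed for T cell identity, each had 23 desert peaks in treatment and 29 in control. Tox, a nuclear factor of exhausted and memory T cells, was flanked by 21 treatment and 31 control peaks, and its strongest pair, at chr4:7755506-7755861 in treatment, had 435 reads in treatment and 942 in control. Runx1 had 17 in treatment and 26 in control, and Ets1 had 18 and 20, with 1467 reads in treatment and 1312 in control at the strongest pair beside Ets1. Of the surface and survival genes after Bcl2l11, Dusp4, a phosphatase that turns off MAP kinases, had 16 in treatment, all shared, and 26 in control, with a median log2 ratio of -1.21 over 16 pairs.

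Of the desert peaks in 1 library only, those of treatment stayed at lower fold enrichments than those of control. The strongest treatment-only desert peak, at chr15:61481960-61482310 in the desert between A1bg and Myc, had a fold enrichment of 10.5 and 178 reads, and the nearest control peak was 350 bp away. The next 4, beside Flrt2, Cxcl12, Trib2 and Gata6, had between 113 and 135 reads. The strongest control-only desert peak, at chr1:102628105-102628330, had a fold enrichment of 37.2 and 563 reads, 226 bp wide and 2137677 bp from the nearest gene, and the nearest treatment peak was 725059 bp away. Control-only peaks at chr2:8865478-8865824, in the desert beside Gata3, and at chr4:7689507-7689887, beside Tox, had fold enrichments of 23.6 and 23.3 and 414 and 412 reads. The other 2 of the top 5, at chr10:124138458-124138999 beside Tafa2 and at chr13:16132093-16132586 beside Inhba, had 397 and 384 reads. Among shared desert peaks, the highest fold enrichments were at narrow peaks. At chr12:3109872-3110114, at the start of that chromosome, it was 40.4 in treatment and 42.4 in control with 3627 and 2418 reads. At chr3:62159051-62159489, beside Rap2b, it was 40.3 in treatment and 44.1 in control with 738 and 841 reads. At chr5:60042836-60043085, beside Pcdh7, there were 1425 reads in treatment and 1011 in control, and at chr6:9889948-9890153, beside Nxph1, 1534 and 1271. At chr12:97061433-97061787, beside Flrt2, there were 7206 reads in treatment and 5713 in control. The fifth of the control list, at chr2:57629491-57629726 beside Gpd2, had 872 reads in treatment and 812 in control. Over all shared desert peaks the median was 156 summit reads in treatment and 273 in control. How reads map at these narrow peaks of highest fold enrichment was not tested.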

How the data were processed

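ATAC-seq peak lists of 2 libraries of mouse CD8+ T cells, 1 titled treatment and 1 titled control, were used. Per the submitters' processing notes, the tools were cutadapt 2.5, Bowtie2 2.3, Picard 2.20 and MACS2, with build mm10. Settings, filters and read shifting are not given in the sources used here. Peaks were called per library. Each deposited peak has the authors' score, fold enrichment (a ratio to the local background), −log10 p-value and −log10 q-value, and a summit position. Both lists reach down to a −log10 q-value of 2.00.

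Protein-coding spans were those of RefSeq for GRCm38.p6, the assembly of mm10, with 20560 on chromosomes 1 to 19. A further 105 entries starting in the first 3 Mb of a chromosome were left out. Their positions were taken to be those of scaffolds, which was not checked. No peak started in the first 3 Mb. Sharing meant an overlap of at least 1 bp. Summit reads were the whole number that the fold and −log10 p-value give together; the method was tested on simulated data. Read totals were not used here. Percentages carry 95% Wilson intervals and medians order-statistic intervals, both for counting error alone. No test was made, as each group has 1 library. Alternatives were other distances, all genes as bounds, a stricter q-value, lists of equal length, 50% reciprocal overlap and, chosen after seeing the data, deserts without receptor segments. The planned count of motifs in peaks was not run, for want of a genome; RefSeq promoter windows were searched instead.

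Deserts named were the 15 with most peaks, the 5 with most treatment-only peaks, the 5 with the largest control excess and the 5 with most peaks per Mb among those with 10 or more; peaks named were the 5 of highest fold enrichment of each kind, and list genes the 12 with most desert peaks. Of these, 1 desert is not reported here. Members and lists were chosen with earlier results of these data known. Python 3.11.15, numpy 2.4.6, pandas 2.3.3, scipy 1.17.1 and matplotlib 3.10.9 were used.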

Additional observations from a re-analysis of the deposited data

How the results depend on the processing

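With 1 library in each group, no difference could be set against replicates, and the number, sharing and width of desert peaks are limited by list length and peak strength. The number ratio was 0.705 as reported, 0.665 with −log10 q-values from 10 up and 0.969 with lists of equal length. The share of treatment desert peaks found in control, 88.9% as reported, was 83.4% with every gene of the table as a bound (229 treatment and 330 control peaks left), 93.0% at that stricter q-value, 78.3% with lists of equal length and 79.6% with 50% reciprocal overlap. The share of control desert peaks found in treatment, 62.7% as reported, was 57.6% with every gene as a bound, 75.5% with lists of equal length, 56.1% with 50% reciprocal overlap and 61.0% without receptor segment deserts, the last chosen after seeing the data. The treatment median width of 452 bp was 425 bp beyond 200 kb, 412 bp with every gene as a bound and 483 bp at the stricter q-value. The control median of 446 bp was 461 bp beyond 50 kb, 382.5 bp with every gene as a bound, 465 bp at the stricter q-value and 541 bp with lists of equal length.

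Among the 22 named deserts, the treatment minus control count changed sign with lists of equal length at Myc to Gsdmc (4), Sall3 to Galr1 (8), A1bg to Myc (1), Eea1 to Btg1 (2) and Haao to Zfp36l2 (3), and with every gene as a bound at Sall3 to Galr1 (1). Lists of equal length have fewer control peaks by construction; the cause at each desert was not tested. The treatment excess between Ube3a and Snurf, 13 as reported, was 14 beyond 50 kb, 8 beyond 200 kb, 6 at the stricter q-value and 18 with lists of equal length. More treatment than control peaks were found beside 0 of the regulator deserts as reported and beside 9 with lists of equal length, a comparison added after seeing the data. No paired analysis was possible because each group has 1 library.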

Other observations

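Deserts of the sex chromosomes were outside the rule. By the same distance rule, 125 of 1515 treatment peaks and 137 of 1792 control peaks on chromosome X lay in deserts, and 14 of 44 treatment and 14 of 50 control peaks on chromosome Y.

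The imprinted microRNA cluster between Rtl1 and Dio3 lies in a desert. The hairpin Mir377 there had its nearest treatment peak 197373 bp away, with 166 reads, and its nearest control peak 9284 bp away, with 42 reads and in control only. Mir6363, in the desert between Ccdc54 and Cblb, a ubiquitin ligase gene known for limiting T cell activation, had 3 peaks within 10 kb in each library, and the nearest had 1483 reads in treatment and 1500 in control. That nearest peak is the same one given above for the Dubr promoter.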
